A study of Mus musculus with 18 samples.

Results

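The small leucine-rich proteoglycans studied here are the products of 8 mouse genes, Dcn (decorin), Bgn (biglycan), Aspn (asporin), Lum (lumican), Fmod (fibromodulin), Prelp, Omd (osteomodulin) and Ogn (osteoglycin). They were picked by name from a table of 78317 genes, in which each of the 8 had 1 row. The choice of this family was made with earlier results of the same libraries in view, among them higher levels in one sorted fraction, so the fraction differences below describe these libraries and support nothing beyond them. Bulk RNA sequencing was done on wild-type kidneys from the outbred mouse stock CD1, dissected at embryonic day 14, exposed for 4 hours to the gene delivery virus AAV2 and then kept for 72 hours in a gel of collagen I and Matrigel. Every culture received virus, with no untransduced group among the libraries analysed here. Each vector carried the red reporter mCherry under the broadly active CAG promoter, upstream of 2 microRNA-style short hairpin cassettes. The cassettes were aimed at separate stretches of Mylk (Mylk-shRNA), at Rock1 and at Rock2 (Rock1/2-shRNA), or carried shuffled Rock1 and Rock2 target sequences (scramble-shRNA, the control). Kidneys of a condition were pooled, digested for 30 minutes with trypsin and collagenase, and sorted by reporter signal, with the brightest 25% of cells kept as the positive fraction and the dimmest 50% as the negative fraction. The 6 groups were Mylk-shRNA positive, Rock1/2-shRNA positive, scramble-shRNA positive, Mylk-shRNA negative, Rock1/2-shRNA negative and scramble-shRNA negative, with 3 libraries each, 1 from each of 3 litters. Replicate spread is therefore the spread between litters, and both fractions of a vector and litter came from 1 culture (9 cultures in all).

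Small leucine-rich proteoglycans are secreted proteins whose curved core of leucine-rich repeats binds collagen fibrils and sets fibril diameter and spacing. Many carry sugar chains, which are chondroitin or dermatan sulfate on decorin and biglycan and keratan sulfate on lumican, fibromodulin and osteomodulin. Several also bind growth factors of the TGF-beta family, and soluble biglycan is known to act on receptors of innate immunity. In kidney they are made mainly by interstitial, perivascular and other mesenchymal cells, and decorin and biglycan accumulate in scarring. Dcn, Bgn and Aspn belong to class I of the family, Lum, Fmod, Prelp and Omd to class II, and Ogn to class III.

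Library depth was 3121616 to 12170814 counts (median 7581370). The libraries of litter 3 held 3.95 to 9.16% mitochondrially encoded counts, against 2.01 to 4.02% over litters 1 and 2. The targeted transcripts did not pass the test of the knockdown vectors against scramble-shRNA: in the positive fraction Mylk averaged 175 ± 10.7 CPM (the count scaled to a library sum of 1e6) with Mylk-shRNA, against 197 ± 14.7 CPM with scramble-shRNA, Rock1 averaged 80.2 ± 4.90 CPM with Rock1/2-shRNA, against 85.6 ± 13.7 CPM with scramble-shRNA, and Rock2 averaged 62.9 ± 6.02 CPM with Rock1/2-shRNA, against 71.4 ± 9.12 CPM with scramble-shRNA (SD, n = 3 each). The labelled tissue was present in its markers, with Foxd1, a transcription factor of kidney stroma, at 327 CPM on average in the positive and 116 CPM in the negative fraction.

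Every member except Omd was higher in the positive than in the negative fraction of all 9 cultures, which held for 15.2% of all 16544 tested genes. The size ran from 19.2-fold for Ogn and 18.1-fold for Lum through 11.1-fold for Dcn, 6.93-fold for Fmod, 4.72-fold for Prelp and 4.00-fold for Aspn to 2.84-fold for Bgn, in the fit averaged over the 3 vectors. Omd stayed near its detection limit. In such bulk samples, fewer cells of a type and less RNA per cell cannot be told apart, so a level states how much of a library's RNA came from the gene, not how many cells made it.

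**Figure D1:**
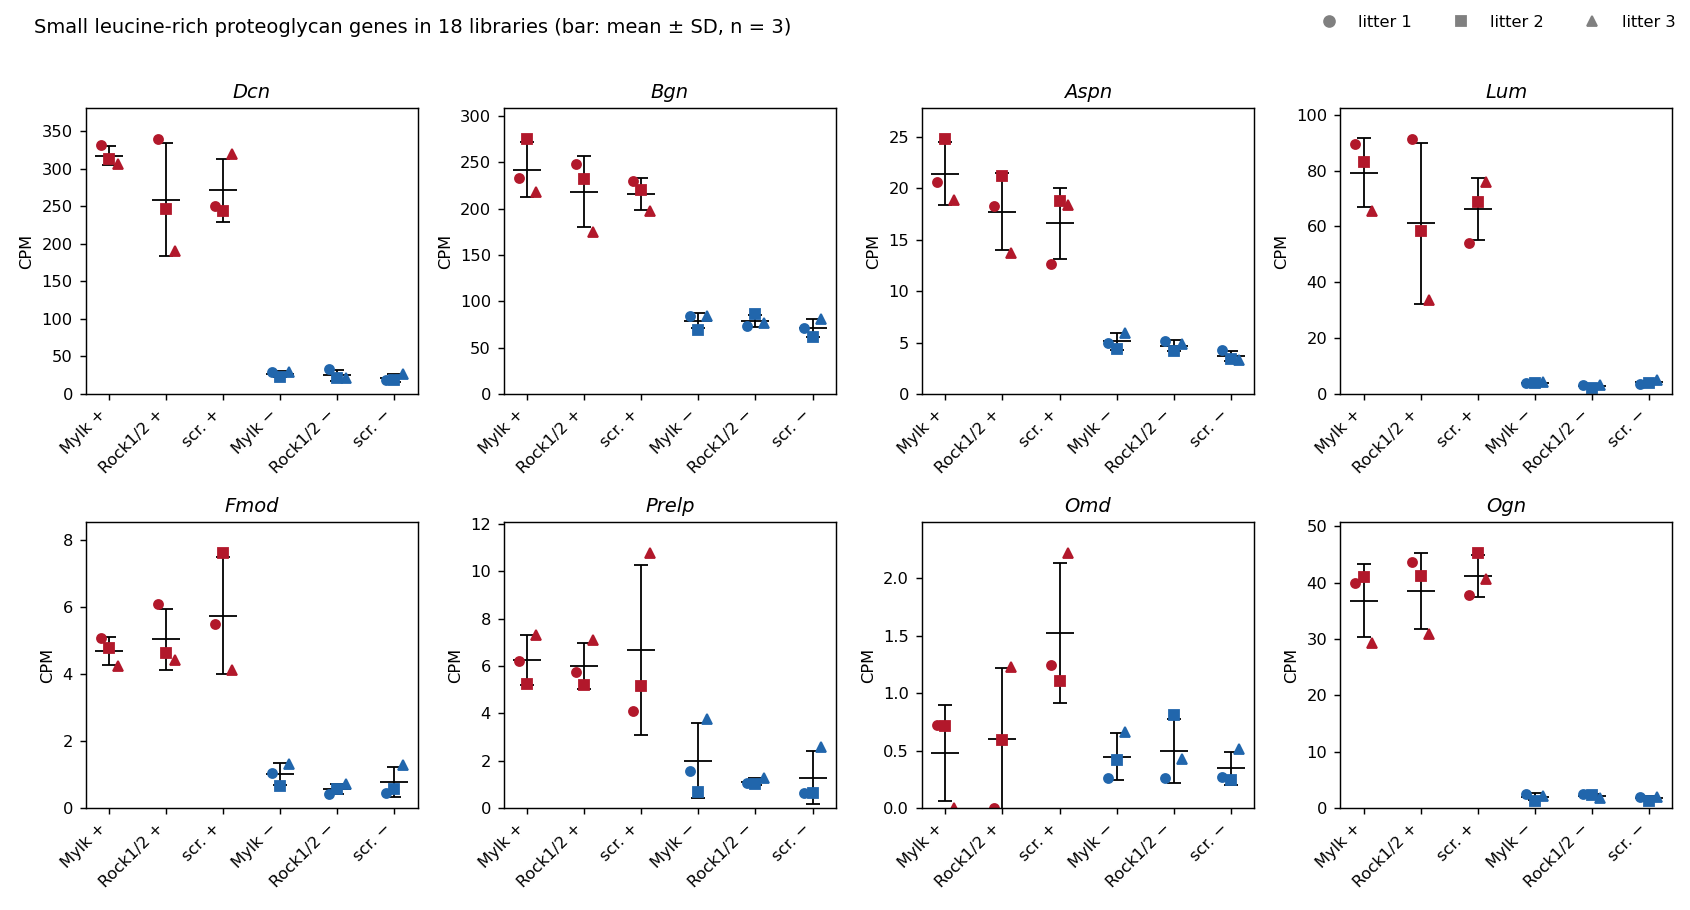
CPM of each of the 8 genes (y axis, starting at 0 with its own range per panel) in the 18 libraries, by vector and mCherry fraction (x axis, + positive in red, − negative in blue, scr. for scramble-shRNA). Symbols mark the litter, and black bars give the mean ± SD of 3 libraries; in 7 panels the red and blue points do not overlap, with all red points above (6.65% of all tested genes), and in the Omd panel they overlap.

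Decorin, the class I member that coats collagen I fibrils and binds TGF-beta, had 331, 314 and 306 CPM in the Mylk-shRNA positive libraries of litters 1, 2 and 3, then 339.6, 246 and 190.5 CPM with Rock1/2-shRNA and 249.8, 244 and 319.6 CPM with scramble-shRNA. The negative libraries held 29.3, 22.1 and 29.7 CPM with Mylk-shRNA, 33.7, 20.9 and 21.4 CPM with Rock1/2-shRNA and 19.3, 18.2 and 27 CPM with scramble-shRNA. The 2 fractions lie far apart, since the lowest positive library (Rock1/2-shRNA, litter 3) is still above the highest negative one, and within the Rock1/2-shRNA and scramble-shRNA positive groups the litters differ by more than the 3 vector means do. The log2 fold change was 3.48 ± 0.13 (SE), and the ratio within a culture ran from 8.91 to 14.2 (median 11.8).

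Biglycan, which resembles decorin and has its gene on the X chromosome, had 233, 275 and 218 CPM with Mylk-shRNA, 248, 232 and 175 CPM with Rock1/2-shRNA and 230.2, 220.1 and 197 CPM with scramble-shRNA in the positive libraries, in the order of the litters. Its negative libraries were well filled too, at 84.2, 69.4 and 83.9 CPM with Mylk-shRNA, 73.0, 86.1 and 77.1 CPM with Rock1/2-shRNA and 71.1, 61.5 and 81.0 CPM with scramble-shRNA. Bgn thus had the shallowest difference of the tested members, although its fractions did not overlap, with a log2 fold change of 1.51 ± 0.077 (SE) and culture ratios of 2.27 to 3.96 (median 2.76).

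Asporin, the class I member with an aspartate-rich stretch in place of sugar chains, had 20.6, 24.8 and 18.9 CPM with Mylk-shRNA, 18.3, 21.2 and 13.7 CPM with Rock1/2-shRNA and 12.6, 18.8 and 18.4 CPM with scramble-shRNA in the positive libraries. Among negative libraries it had 4.94, 4.40 and 5.97 CPM with Mylk-shRNA, 5.13, 4.15 and 4.84 CPM with Rock1/2-shRNA and 4.31, 3.45 and 3.34 CPM with scramble-shRNA. The fractions did not overlap, the log2 fold change was 2.00 ± 0.11 (SE), and culture ratios ran from 2.83 to 5.64.

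Lumican, a class II keratan sulfate proteoglycan first known from the clear cornea, had 89.3, 82.9 and 65.4 CPM with Mylk-shRNA, 91.3, 58.2 and 33.8 CPM with Rock1/2-shRNA and 54.1, 68.9 and 75.8 CPM with scramble-shRNA in the positive fraction. Negative libraries had 4.06, 3.82 and 4.20 CPM with Mylk-shRNA, 3.39, 2.19 and 3.28 CPM with Rock1/2-shRNA and 3.57, 4.03 and 4.88 CPM with scramble-shRNA. Lum varied most with Rock1/2-shRNA, where litter 1 was the highest and litter 3 the lowest of all 9 positive libraries, the same 2 libraries that were highest and lowest for Dcn. Its log2 fold change was 4.18 ± 0.17 (SE), with culture ratios of 10.3 to 26.9 (median 17.1).

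Osteoglycin, also called mimecan, is a small class III member of connective tissue and the vessel wall. Positive libraries held 39.9, 41.0 and 29.3 CPM with Mylk-shRNA, 43.6, 41.2 and 30.8 CPM with Rock1/2-shRNA and 37.8, 45.2 and 40.6 CPM with scramble-shRNA. In the negative libraries the gene stood at 2.47, 1.33 and 2.21 CPM with Mylk-shRNA, 2.52, 2.31 and 1.85 CPM with Rock1/2-shRNA and 1.92, 1.23 and 2.06 CPM with scramble-shRNA. Its log2 fold change of 4.27 ± 0.12 (SE) was the highest among the members and ranked 58 of 16544 tested genes, with culture ratios of 13.3 to 36.7.

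The 2 class II members encoded side by side on chromosome 1 were scarce. Fibromodulin, which binds collagen near the site used by lumican, had 5.07, 4.76 and 4.23 CPM with Mylk-shRNA, 6.09, 4.61 and 4.41 CPM with Rock1/2-shRNA and 5.50, 7.61 and 4.12 CPM with scramble-shRNA in the positive fraction, and its negative libraries had 1.06, 0.664 and 1.33 CPM with Mylk-shRNA, 0.435, 0.576 and 0.712 CPM with Rock1/2-shRNA and 0.458, 0.575 and 1.29 CPM with scramble-shRNA. Prelp, a protein with an arginine- and proline-rich end that anchors matrix to basement membrane, had 6.21, 5.24 and 7.33 CPM with Mylk-shRNA, 5.77, 5.21 and 7.10 CPM with Rock1/2-shRNA and 4.08, 5.16 and 10.8 CPM with scramble-shRNA in the positive fraction. Prelp in the negative fraction had 1.59, 0.664 and 3.76 CPM with Mylk-shRNA, 1.04, 1.04 and 1.28 CPM with Rock1/2-shRNA and 0.641, 0.657 and 2.57 CPM with scramble-shRNA. Neither gene overlapped between fractions, and Prelp was highest in litter 3 in each of the 6 groups. That litter had the highest mitochondrial share of each group except scramble-shRNA positive, where it held 3.95% against 4.02% in litter 1. The part of that litter's RNA quality in the Prelp levels was not tested. The log2 fold changes were 2.79 ± 0.21 for Fmod and 2.24 ± 0.31 for Prelp (SE), from only 5 to 12 and 7 to 18 counts per negative library.

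Osteomodulin, a bone proteoglycan, was detected at 0 to 9 counts per library and did not reach the count needed for a test. It had 0.724, 0.715 and 0 CPM with Mylk-shRNA, 0, 0.592 and 1.224 CPM with Rock1/2-shRNA and 1.24, 1.11 and 2.22 CPM with scramble-shRNA in the positive fraction. In the negative fraction Omd had 0.265, 0.415 and 0.664 CPM with Mylk-shRNA, 0.261, 0.807 and 0.427 CPM with Rock1/2-shRNA and 0.275, 0.246 and 0.514 CPM with scramble-shRNA. The fractions overlapped, the positive library was the higher in 6 of 9 cultures, and the difference was not tested in the main fit, which filters low counts. With scramble-shRNA alone the positive library was the higher in 3 of 3 cultures. It held 1.11 to 2.22 CPM there, against 0.246 to 0.514 CPM in negative libraries, from 7 to 9 and 2 to 3 counts. With Mylk-shRNA (0 to 0.724 CPM in positive libraries) and Rock1/2-shRNA (0 to 1.224 CPM) the fractions overlapped. No difference between vectors is read from so few counts.

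With edgeR's quasi-likelihood test, 7 of the 7 tested members passed an adjusted p of 0.05 in the higher direction, where 17.6% of all 16544 tested genes did. Their median log2 fold change was 2.79, against -0.03 over all tested genes. Because the family was put forward with this contrast known, and because Fmod entered the test through its positive libraries alone (the low-count filter asked for about 1.3 CPM in 3 libraries, and 1 negative library of Fmod and 3 of Prelp reached it), nothing is read from that count. Within single vectors it was also 7 of 7, beside backgrounds of 8.07% for Mylk-shRNA, 6.94% for Rock1/2-shRNA and 7.43% for scramble-shRNA. Prelp was the weakest of these, with a log2 fold change of 1.78 ± 0.52 (SE) and an adjusted p of 0.0274 with Mylk-shRNA. That call was lost when Mylk-shRNA positive replicate 1 or 3 was left out (log2 fold change 1.77, adjusted p 0.0816, and 1.65, adjusted p 0.0693), when Mylk-shRNA negative replicate 1 or 2 was left out (1.68, adjusted p 0.109, and 1.29, adjusted p 0.128), and when only the Mylk-shRNA libraries were fitted (1.76, adjusted p 0.0654). Without the negative library of litter 3, the one highest in Prelp, the estimate was higher, at 2.41 (adjusted p 0.00268) with Mylk-shRNA, and with scramble-shRNA it was 3.23 against 2.57 with all libraries. With the litter as a block, 4019, 3369 and 3848 genes were called in either direction with Mylk-shRNA, Rock1/2-shRNA and scramble-shRNA, against 2186, 1859 and 2032 without it, and 7 of 7 members in each.

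**Figure D2:**
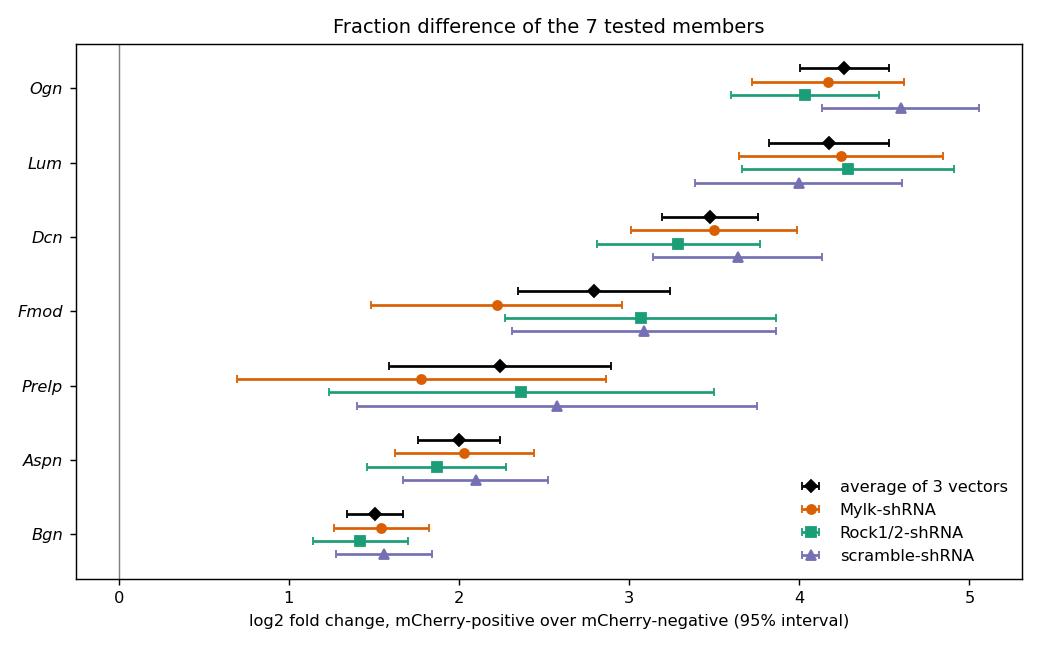
Log2 fold change of the positive over the negative fraction (x axis) for the 7 tested genes (y axis), as the average of 3 vectors (black diamonds) and for each vector (coloured symbols), with 95% intervals. The averages run from 1.51 for Bgn to 4.27 for Ogn, and the intervals of the 3 vectors overlap for each gene.

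The order of these differences varied between cultures, and since the fraction contrast was known when the family was chosen, no test of the order is given. The mean log2 ratio over 9 cultures was 4.31 ± 0.468 for Ogn and 4.19 ± 0.449 for Lum (SD), and Ogn was the higher in 5 of 9 cultures, so these neighbours did not differ beyond their spread. Lum stood above Dcn (3.53 ± 0.215) in 9 of 9 cultures, by 0.66 ± 0.43 within a culture. Dcn stood above Fmod (2.80 ± 0.82) in 8 of 9 cultures, by 0.73 ± 0.79, and Fmod above Prelp (2.32 ± 0.619) in 7 of 9, by 0.48 ± 0.54. Prelp and Aspn (2.04 ± 0.413) differed by 0.28 ± 0.62, with Prelp the higher in 5 of 9, and Aspn stood above Bgn (1.56 ± 0.273) in 8 of 9, by 0.48 ± 0.41. The 9 cultures share 3 litters and are not fully independent.

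The make-up of the family's RNA therefore differed between fractions. The summed level of the 8 genes was 708 ± 51.7 CPM with Mylk-shRNA, 606 ± 148 CPM with Rock1/2-shRNA and 625 ± 38.6 CPM with scramble-shRNA in positive cells, and in negative cells it was 121 ± 15.7 CPM with Mylk-shRNA, 116 ± 4.62 CPM with Rock1/2-shRNA and 105 ± 16.6 CPM in the scramble-shRNA cultures (SD, n = 3 each). Dcn made up 40.0 to 47.8% of that sum in positive libraries and 17.7 to 28.2% in negative ones. Bgn made up 29.5 to 38.7% in positive libraries and 61.1 to 73.0% in negative ones. Lum made up 7.4 to 12.3% in positive and 1.9 to 4.5% in negative libraries, and Ogn 4.5 to 7.4% in positive and 1.3 to 2.1% in negative libraries. The shares of Dcn, Bgn, Lum and Ogn thus did not overlap between fractions, whereas those of Aspn, Fmod, Prelp and Omd did. These shares are of counts and are not scaled by transcript length. Since CPM grows with that length, the members were ranked by level per kilobase of annotated exon (GENCODE M21). The length was the union of all annotated exons of a gene, which can exceed that of the transcript made. It was 5838 bases for Dcn and 6099 for Bgn, against 2448 for Lum, 2566 for Ogn and 2354 for Aspn. The ranking depends on these lengths and may understate Dcn and Bgn against the others. On that scale Dcn was the highest in positive cells, at 48.4 ± 8.75 CPM per kilobase, above Bgn at 36.9 ± 4.67 and Lum at 28.1 ± 7.56, followed by Ogn at 15.1 ± 2.1 and Aspn at 7.89 ± 1.57, while Prelp (1.75 ± 0.541), Fmod (1.56 ± 0.338) and Omd (0.387 ± 0.306) were low and Prelp and Fmod did not differ beyond their spread (SD, n = 9). In negative cells Bgn led with 12.5 ± 1.35 CPM per kilobase, above Dcn at 4.21 ± 0.930, Aspn at 1.91 ± 0.352, Lum at 1.52 ± 0.306 and Ogn at 0.775 ± 0.180, so Dcn ranked below Bgn there and above it in positive cells.

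**Figure D3:**
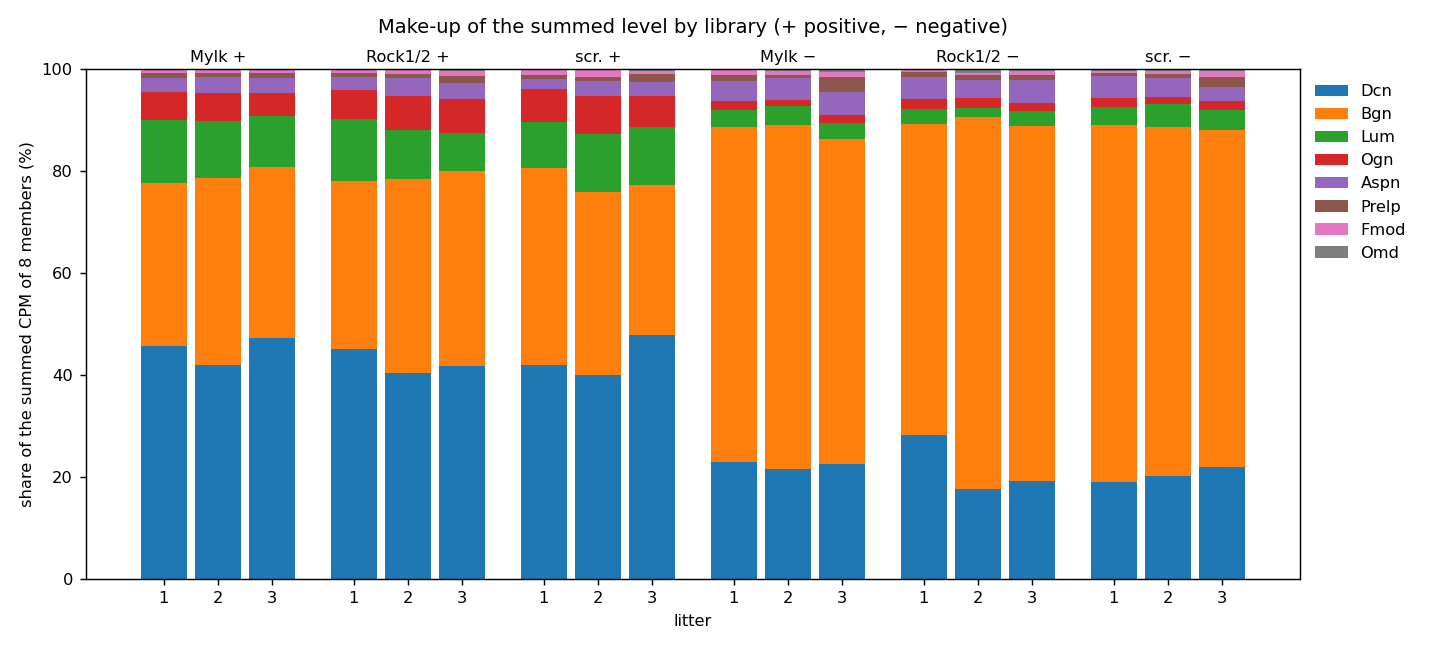
Share of each gene in the summed CPM of the 8 genes (y axis, percent), 1 bar per library, by vector, fraction and litter (x axis). The blue Dcn part is larger in the 9 positive bars at the left (40.0 to 47.8%), and the orange Bgn part is larger in the 9 negative bars at the right (61.1 to 73.0%). Shares are of counts and are not scaled by transcript length.

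Most of the family sits in small clusters of genes. In the gene order of the GRCm38 reference, Dcn and Lum are neighbours on chromosome 10 with Kera beyond Lum, the run Ecm2, Aspn, Omd and Ogn lies on chromosome 13, and Prelp and Fmod are neighbours on chromosome 1 with Optc before Prelp. Bgn stands apart on the X chromosome. Neighbours did not always share a level. Omd, between Aspn and Ogn, averaged 0.387 CPM per kilobase in positive and 0.191 in negative libraries, where Ogn averaged 15.1 in positive and 0.775 in negative libraries. Prelp and Fmod lay close together in positive libraries, at 1.75 ± 0.541 and 1.56 ± 0.338 CPM per kilobase (SD, n = 9). Kera averaged 0.0795 CPM in positive and 0.0246 CPM in negative libraries, and Optc 0.163 CPM in positive and 0.143 CPM in negative libraries, and neither was tested. Of the nearest genes outside the family, Atp2b3, after Bgn, averaged 0.177 CPM in positive and 0.0404 CPM in negative libraries and was not tested, and the others lay closer to 0 than the tested members. Btg1, before Dcn, averaged 165 CPM in positive and 199 CPM in negative libraries (log2 fold change -0.33 ± 0.072), Haus7, before Bgn, averaged 18.3 CPM in positive and 14.9 CPM in negative libraries (0.25 ± 0.075). Nol8, after Ogn, averaged 23.5 CPM in positive and 27.8 CPM in negative libraries (-0.29 ± 0.11), and Btg2, after Fmod, averaged 75.8 CPM in positive and 61.7 CPM in negative libraries, which did not pass the test (0.24 ± 0.36, SE).

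Promoter windows from 250 bases before to 50 after the annotated start were found for 6 of the 8 genes in RefSeq's GRCm38.p6 table. Those of Ogn and Bgn are shown because they belong to the members with the steepest and the shallowest fraction difference, and that of Aspn because its gene lies in the same cluster as Ogn. Capitals mark matches, on either strand, to a TATA box (TATAAA), a TEAD site (CATTCC), an AP-1 site (TGANTCA), an E-box (CAGCTG) or the CArG box that binds serum response factor. Ogn (chr13:49607765-49608064, plus strand), Aspn (chr13:49544193-49544492, plus strand) and Bgn (chrX:73483351-73483650, plus strand) read 5′ to 3′:
Ogn: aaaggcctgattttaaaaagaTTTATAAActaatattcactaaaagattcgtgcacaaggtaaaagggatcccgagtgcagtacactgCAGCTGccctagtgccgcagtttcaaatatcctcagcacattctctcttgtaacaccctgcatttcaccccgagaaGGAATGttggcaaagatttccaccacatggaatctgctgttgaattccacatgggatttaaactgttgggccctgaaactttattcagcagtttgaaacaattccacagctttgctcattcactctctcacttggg
Aspn: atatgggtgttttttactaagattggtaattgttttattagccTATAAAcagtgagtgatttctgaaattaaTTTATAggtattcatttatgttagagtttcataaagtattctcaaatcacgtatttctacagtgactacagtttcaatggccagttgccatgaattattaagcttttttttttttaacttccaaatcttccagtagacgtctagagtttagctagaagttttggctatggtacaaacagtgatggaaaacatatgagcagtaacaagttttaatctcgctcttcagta
Bgn: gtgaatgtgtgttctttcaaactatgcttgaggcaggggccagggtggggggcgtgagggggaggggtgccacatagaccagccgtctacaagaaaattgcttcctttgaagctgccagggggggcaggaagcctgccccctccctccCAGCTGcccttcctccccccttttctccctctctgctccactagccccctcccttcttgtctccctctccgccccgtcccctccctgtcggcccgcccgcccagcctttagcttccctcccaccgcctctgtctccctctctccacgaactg
The Ogn window held 2 overlapping TATA matches, 1 on each strand, in 1 run of capitals, then 1 E-box and 1 TEAD match, and 42.3% of its bases were G or C. Aspn's window held 2 TATA matches and 31% G or C, a lower share than in all but 1.28% of promoters. Bgn's window held 1 E-box and 63.7% G or C, against a median of 52.7% over 32851 promoters. The windows of Fmod, Prelp and Omd held none of the 5 motifs. Of all promoters, 13.6% held the TATA letters, 14.7% the TEAD letters, 7.81% the AP-1 letters, 16.3% the E-box letters and 1.63% a CArG box. The TATA matches of Ogn and Aspn lay toward the upstream end of their windows, away from the annotated start. A match is a run of letters and no evidence of binding, and the distance of matches to the start was not tested.

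The vector comparisons ask whether the hairpins against Mylk or Rock1/2 went with other levels of the family, and none of the tested members passed. In the positive fraction Dcn averaged 317 ± 12.7 CPM with Mylk-shRNA, while it had 259 ± 75.4 CPM with Rock1/2-shRNA, against 271 ± 42.0 CPM with scramble-shRNA (SD, n = 3 each). On the log2 scale it differed by 0.21 ± 0.21 between Mylk-shRNA and scramble-shRNA (95% interval -0.22 to 0.64), -0.08 ± 0.21 for Rock1/2-shRNA against scramble-shRNA (-0.51 to 0.36) and 0.29 ± 0.21 for Mylk-shRNA against Rock1/2-shRNA (-0.15 to 0.72). In each of these 3 comparisons 0 of 7 tested members were called, 0 of 7 had an unadjusted p under 0.05, and the background was 0 of 16544 genes (0%) by edgeR's quasi-likelihood test, with an unadjusted p under 0.05 for 258, 145 and 199 genes and no gene (0) called by DESeq2.

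The other tested members did not pass either. For Mylk-shRNA against scramble-shRNA the positive fraction gave values between 0.35 ± 0.18 for Aspn (interval -0.03 to 0.73) and -0.34 ± 0.30 for Fmod (-0.97 to 0.30), on the log2 scale. For Rock1/2-shRNA against scramble-shRNA they lay between 0.11 ± 0.18 for Aspn (-0.28 to 0.49) and -0.25 ± 0.31 for Fmod (-0.89 to 0.39). Between Mylk-shRNA and Rock1/2-shRNA they ran from 0.38 ± 0.23 for Lum (-0.10 to 0.87) to -0.09 for Fmod (-0.74 to 0.57). The widths of these intervals state what a fit without pairing by litter could resolve, with 1 spread estimated over all groups. For Dcn a change to above 1.56 times or below 0.857 times the scramble level with Mylk-shRNA lies outside the interval.

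The negative fraction holds the cells of the same cultures with the lowest reporter signal, which share the medium and matrix of the positive cells. There Dcn averaged 27 ± 4.29 CPM with Mylk-shRNA and 25.3 ± 7.25 CPM with Rock1/2-shRNA, against 21.5 ± 4.80 CPM with scramble-shRNA. The log2 fold changes of Dcn were 0.35 ± 0.23 for Mylk-shRNA against scramble-shRNA (-0.13 to 0.83), 0.27 ± 0.23 for Rock1/2-shRNA against scramble-shRNA (-0.20 to 0.75) and 0.08 ± 0.22 between Mylk-shRNA and Rock1/2-shRNA (-0.39 to 0.54). Mylk-shRNA against scramble-shRNA ran from 0.75 ± 0.61 for Prelp to 0.00 for Lum (-0.0017). That Prelp value moved with single libraries, to 0.15 without the Mylk-shRNA negative library of litter 3 and to 1.40 without the scramble-shRNA negative library of litter 3. Rock1/2-shRNA against scramble-shRNA ran from 0.46 ± 0.28 for Ogn to -0.43 ± 0.35 for Lum, and Mylk-shRNA against Rock1/2-shRNA from 0.76 ± 0.43 for Fmod to -0.21 ± 0.27 for Ogn. Again 0 of 7 members were called in each, beside 0% of all genes (285, 200 and 121 genes at an unadjusted p under 0.05, and 0 called by DESeq2).

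**Figure D4:**
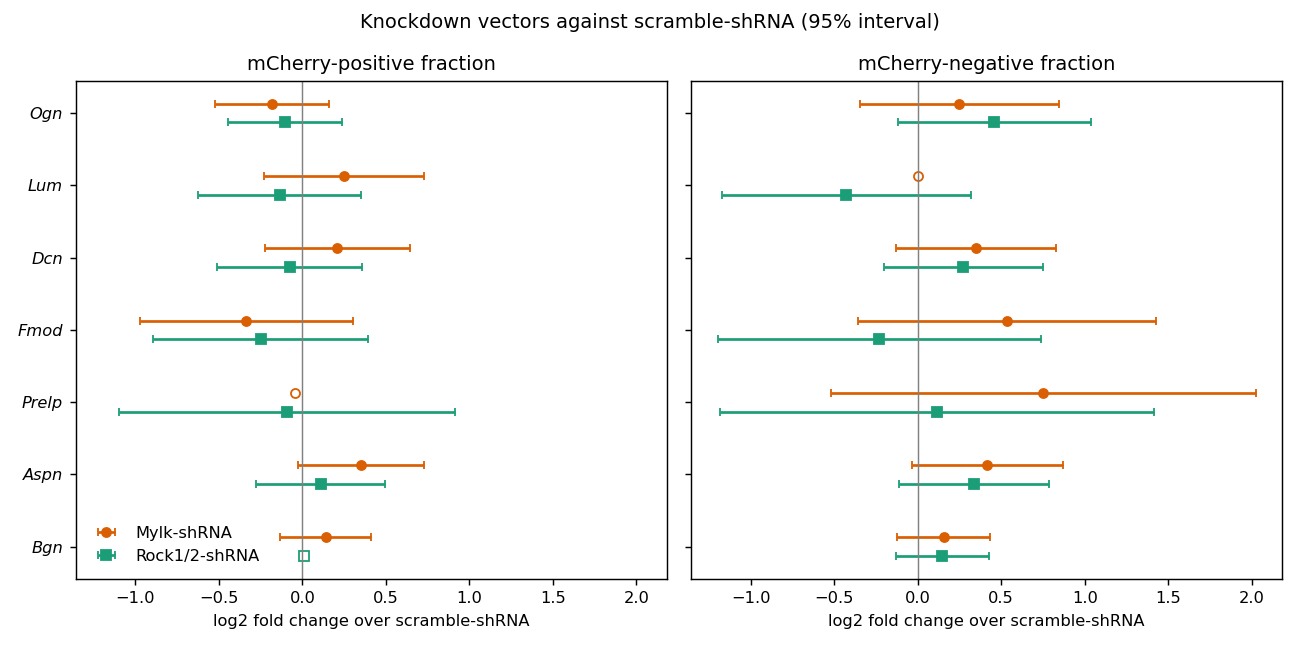
Log2 fold change over scramble-shRNA (x axis) of the 7 tested genes (y axis) for Mylk-shRNA (circles) and Rock1/2-shRNA (squares), in the positive fraction (left) and the negative fraction (right), with 95% intervals. Every interval drawn includes 0; open symbols are estimates within 0.05 of 0, for which no interval was computed.

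Whether the fraction difference itself depended on the vector was tested as an interaction. The log2 fold change between fractions with Mylk-shRNA minus that with scramble-shRNA was -0.14 ± 0.31 for Dcn, with extremes of 0.25 ± 0.41 for Lum and -0.87 ± 0.52 for Fmod (95% interval -1.97 to 0.23). With Rock1/2-shRNA in place of Mylk-shRNA the values were -0.35 ± 0.31 for Dcn, 0.29 ± 0.42 for Lum and -0.56 ± 0.32 for Ogn (-1.24 to 0.11). None of 7 members (0) and none of 16544 genes (0%) were called in either interaction, with an unadjusted p under 0.05 for 217 and 145 genes and 0 called by DESeq2.

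The direction with Rock1/2-shRNA changed between litters. Dcn in positive cells of litter 1 was 339.6 CPM with Rock1/2-shRNA against 249.8 CPM with scramble-shRNA. The same pair was 246 CPM with Rock1/2-shRNA against 244 CPM with scramble-shRNA in litter 2, and 190.5 CPM with Rock1/2-shRNA against 319.6 CPM with scramble-shRNA in litter 3. Lum was higher with Rock1/2-shRNA in litter 1 only, and lower in litters 2 and 3. Litter 3 was thus the one in which both genes were lower with Rock1/2-shRNA, and without it the log2 fold change of Dcn was 0.22. The Rock1/2-shRNA libraries of litter 3 also differed in sex-linked RNA, with Xist, which is transcribed from the inactive X chromosome, at 3.92 CPM in the positive and 1.71 CPM in the negative library, where the other libraries of all 3 vectors ranged from 85.2 to 376 CPM. A summed level of Y-linked genes was 167 and 179 CPM in those same 2 libraries and 22.6 to 49.8 CPM in the Rock1/2-shRNA libraries of litters 1 and 2. It was 76.65 to 105 CPM with scramble-shRNA and 73.88 to 156.7 CPM with Mylk-shRNA. The Rock1/2-shRNA libraries of every litter thus lay outside the ranges of the other vectors, also with litter 3 left out. The part of sex in the levels, including those of the X-linked Bgn, was not tested.

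The rest of the family and the genes that build, bind and cut these proteoglycans were examined from lists chosen with earlier results of these libraries known. Other small leucine-rich genes were mostly scarce. Ecm2, the neighbour of Aspn, averaged 1.74 ± 0.710 CPM in positive and 0.423 ± 0.231 CPM in negative libraries (SD, n = 9 each). It was higher by 1.94 ± 0.35 on the log2 scale (edgeR adjusted p 0.000284). None (0) of its negative libraries reached the level of the low-count filter. It was thus tested through the positive fraction alone, which favours a higher value there, and nothing is read from its call. Tsku, a secreted leucine-rich protein that binds signalling factors, averaged 18.6 ± 2.81 CPM in positive and 17.1 ± 2.84 CPM in negative libraries and did not pass. Chad (chondroadherin, a cartilage protein) averaged 4.07 ± 1.58 CPM in positive and 3.30 ± 1.18 CPM in negative libraries, and Chadl 1.23 ± 0.693 CPM in positive and 1.58 ± 0.473 CPM in negative libraries, and neither passed. Epyc, Kera, Optc, Nyx, Podn and Podnl1 averaged below 0.3 CPM in each fraction and were not tested. Ecm2 was thus the 1 of 4 tested genes, of 10 in the list, that was called higher, with a list median of 0.18 against -0.03 for all tested genes.

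The enzymes that add sugar chains showed no shared direction. Of 6 enzymes that start the linkage chain, 1 was higher, the xylosyltransferase Xylt2 (log2 fold change 0.33 ± 0.081, 37.7 CPM in positive and 29.1 CPM in negative libraries). Of 15 tested genes for chondroitin and dermatan sulfate, 4 were higher and 3 lower. The dermatan epimerase gene Dsel was higher (0.48 ± 0.076), as was the sulfotransferase gene Chst12 (0.48 ± 0.083), while the sulfotransferase genes Chst15 (-0.79 ± 0.074) and Chst11 (-0.60 ± 0.12) were lower (SE). None of 4 tested keratan sulfate genes was called (0), and the list medians were 0.04, 0.10 and 0.08 against -0.03 for all tested genes.

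Collagens are the binding partners of the core proteins, and of 12 such genes 7 were higher and 2 lower, with a median of 0.51. Col5a2 averaged 216 CPM in positive and 96.5 CPM in negative libraries (1.11 ± 0.079) and Col1a1, the main fibril chain, 2505 CPM in positive and 1352 CPM in negative libraries (0.83 ± 0.075), with Col12a1 at 0.82 ± 0.13, whereas the cartilage chain Col2a1 was lower, at 48.7 CPM in positive and 84.8 CPM in negative libraries (-0.86 ± 0.10, SE). The estimates of the collagens lay below those of the tested members, and the difference between the 2 sets was not tested.

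Among growth factors that the proteoglycans bind or modulate, 5 of 7 tested were higher and 2 lower, with a median of 0.73. Tgfb2 averaged 101.6 CPM in positive and 41.1 CPM in negative libraries (1.26 ± 0.085) and Tgfb3 65.9 CPM in positive and 29.7 CPM in negative libraries (1.09 ± 0.14). Bmp2 averaged 9.08 CPM in positive and 24.0 CPM in negative libraries (-1.47 ± 0.091), and Bmp4 20.8 CPM in positive and 35.1 CPM in negative libraries (-0.81 ± 0.10). Receptors were split, with 6 of 11 higher and 4 lower (median 0.33). P2rx7 (1.48 ± 0.27) and P2rx4 (1.00 ± 0.11), purinergic receptors tied to biglycan signalling, were higher. Of the receptor tyrosine kinase genes only Egfr was higher, at 43.8 CPM in positive and 24.4 CPM in negative libraries (0.79 ± 0.099). The 4 receptor genes called lower were all of this kind. They were Erbb4 (-1.18 ± 0.34), Kdr (-0.68 ± 0.15), Met (-0.66 ± 0.13) and Igf1r (-0.35 ± 0.074, SE). P2rx7 reached the filter's level in 0 negative libraries and Erbb4 in 2 positive ones, so each was tested through 1 fraction alone.

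Proteases and their helpers were higher in 8 of 10 tested genes and lower in 1 (median 0.72). Mmp9 averaged 22.4 CPM in positive and 3.55 CPM in negative libraries (2.61 ± 0.21), Adamts5, an aggrecanase, 39.9 CPM in positive and 10.9 CPM in negative libraries (1.83 ± 0.093), and Mmp13 3.03 CPM in positive and 1.31 CPM in negative libraries (1.18 ± 0.31). The related Adamts4 was lower, at 16.2 CPM in positive and 35.8 CPM in negative libraries (-1.17 ± 0.13, SE). All the counts in these lists are adjusted over 16544 genes, of which 17.6% were called higher and 16% lower.

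**Figure D5:**
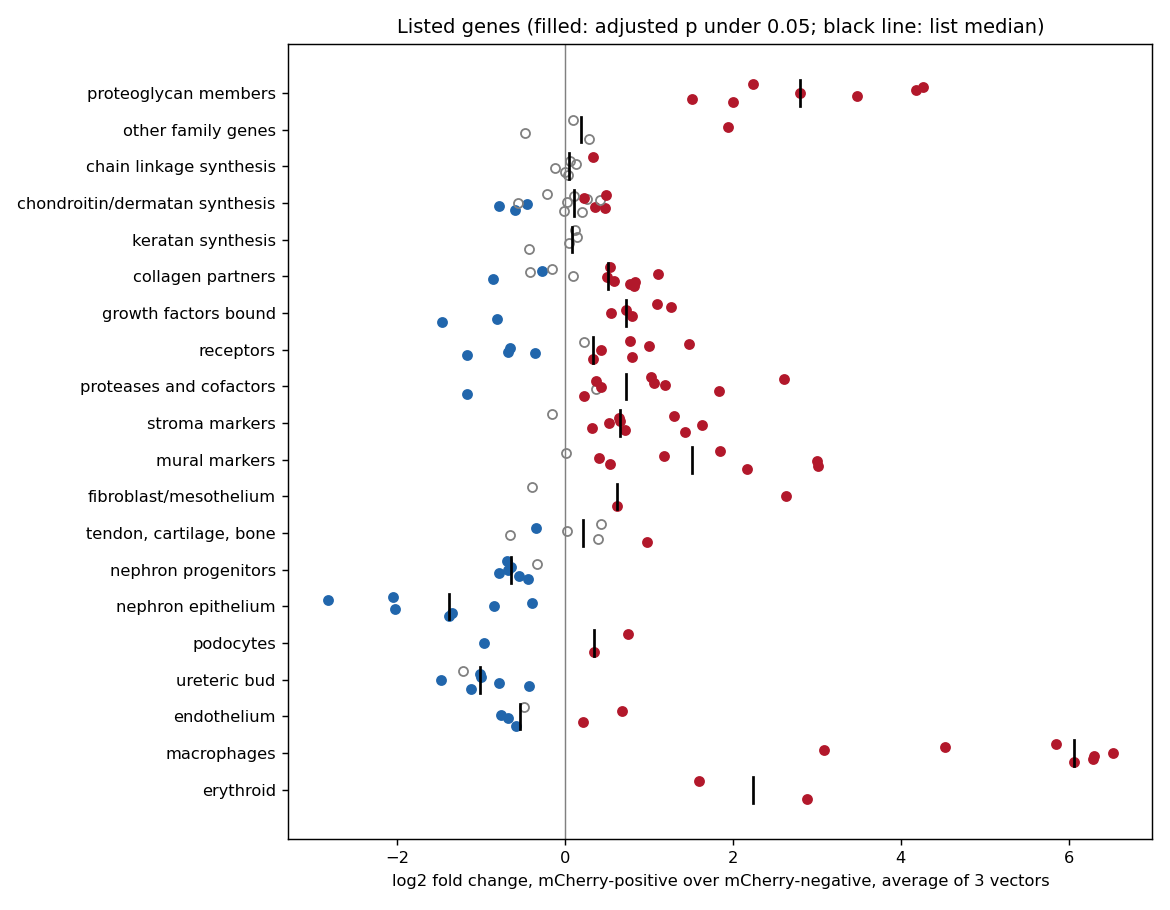
Log2 fold change of the positive over the negative fraction, averaged over 3 vectors (x axis), for tested genes by list (y axis). Filled red and blue points passed an adjusted p of 0.05, open grey points did not, and black lines mark list medians; the proteoglycan members lie between 1.51 and 4.27, the collagens between -0.86 and 1.11 and the macrophage markers between 3.09 and 6.53.

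The fractions also differed in cell type markers. Stroma markers were higher in 8 of 9 genes, with a summed level of 3121 to 4196 CPM in positive and 2250 to 2865 CPM in negative libraries, and Pdgfra, a receptor of stromal cells, at 0.65 ± 0.11 (SE). Mural and smooth muscle markers were higher in 7 of 8 genes (412 to 1084 CPM in positive and 191 to 328 CPM in negative libraries), among them Myh11 (3.00 ± 0.32) and Acta2 (2.17 ± 0.22). Dpt, a gene of mature fibroblasts, averaged 3.35 CPM in positive and 0.552 CPM in negative libraries (2.64 ± 0.31), and 2 of 3 tested genes of the fibroblast and mesothelium list were higher. Tendon, cartilage and bone markers, of tissues in which Fmod, Omd and Aspn are prominent, were nearly level at 26 to 36.9 CPM in positive and 25.9 to 38.3 CPM in negative libraries, with 1 of 6 higher (Acan) and 1 lower (Scx).

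Macrophage markers were higher in 7 of 7 genes, from 3.09 for Cd68 to 6.53 for C1qc on the log2 scale, and their sum was 157 to 353 CPM in positive libraries and 4.98 to 11.95 CPM in negative ones. Of the 7, C1qa, C1qb, C1qc, Adgre1 and Cx3cr1 passed the low-count filter through the positive libraries alone, as did Dpt. C1qa averaged 46.7 CPM in positive and 0.607 CPM in negative libraries (6.29 ± 0.30, SE), and none of the 7 was at 0 in every library of a fraction. Erythroid genes were higher in 2 of 2 tested (106 to 942 CPM in positive and 33.5 to 160.3 CPM in negative libraries), podocyte genes higher in 2 and lower in 1 of 3, and endothelial genes higher in 2 and lower in 3 of 6. Nephron progenitor markers were lower in 6 of 7 genes, nephron epithelium markers in 7 of 7 and ureteric bud markers in 6 of 7. The part of these cell types in the member levels was not tested.

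Profiles over the 18 libraries were compared by the root mean square difference of centred log2(CPM + 1) values. Unnamed and predicted genes, pseudogenes and genes with a mean below 5 CPM were left out. For each well measured member, the 3 closest genes outside the family were named. For Dcn they were Apoe (0.298), Igf1 (0.334) and Thbs2 (0.371), and for Lum Thbs2 (0.421), Apoe (0.450) and Tyrobp (0.461). Ogn was closest to Apoe (0.264), Tyrobp (0.327) and C3ar1 (0.333). The nearest profiles to Bgn were Cd248 (0.139), Cyp1b1 (0.143) and Cd200 (0.168), and those to Aspn were Apbb1ip (0.219), Cxcl16 (0.219) and Adamts5 (0.220). Within the family, Dcn lay close to Ogn (0.273) and Lum (0.321), and Bgn close to Aspn (0.249) and Fmod (0.255), whereas Dcn and Bgn differed by 0.991. These distances are descriptive and are set mostly by the fraction difference that all 18 libraries share. They depend on the pseudocount for genes scarce in negative libraries, such as Fmod, Ogn and C3ar1. C3ar1 averaged 15.1 CPM in positive and 0.205 CPM in negative libraries, a log2 fold change of 6.53, against 4.27 for Ogn. Likewise Fmod (2.79) and Bgn (1.51) differed more in fold change than their distance shows. With a pseudocount of 0.1, 2 of the 3 genes named for Dcn, Bgn and Lum were named again, and 1 of 3 for Aspn and Ogn. Ogn was then closest to Cd53 (0.454), Fcer1g (0.462) and Apoe (0.465).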

How the data were processed

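Poly(A) RNA was captured and libraries were made by tagmentation, per the labels' protocols. The authors deposited 1 table with 78409 rows of genes, giving each library an estimated count and a CPM value, and the deposited CPM equals the count divided by the library's sum and scaled to 1e6, as checked on the table. In each library 22.1 to 27.4% of nonzero counts were fractional, and the treatment of multiply mapped reads and of strand is not given in the sources used here. Among tools, the submitters' processing notes name FastQC 0.12.1, fastp 0.24.0, STAR 2.7.11, SAMtools 1.22.1, featureCounts, Subread 2.1.1 and MultiQC 1.32, with the build GRCm39. The reference at hand is GRCm38, so it served only for gene order, exon lengths and promoter windows.

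The 92 ERCC spike-ins were left out and counts were rounded to whole numbers. Genes were filtered with filterByExpr (minimum count 10, total 15), which kept 16544, and edgeR's quasi-likelihood test with TMM scaling was run on the 18 libraries together, giving each group its own mean (12 residual degrees of freedom, biological coefficient of variation 0.165). Benjamini-Hochberg adjustment was over all tested genes in each of 12 comparisons, with a threshold of 0.05. Genes said not to be tested are those that the low-count filter removed from this fit. SE is the log2 fold change divided by the root of the F statistic, and none is given for values within 0.05 of 0. For scarce genes the p of the test can be larger than this SE implies, and the interval is then narrower than the test. For Fmod, Mylk-shRNA against Rock1/2-shRNA in the positive fraction, edgeR's quasi-likelihood test gave an unadjusted p of 0.939 at -0.09 ± 0.31. edgeR 4.0.16 and DESeq2 1.42.0 were run in R 4.3.3 with limma 3.58.1. The fits were tested on simulated counts.

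Members, gene lists and tests were chosen with earlier results of these data known. The naming rule took all 8 members, every gene of the other-family list, 3 nearest profiles per member above 5 CPM, and chromosome neighbours. It also took up to 4 called genes of largest change per functional list (the text gives a selection) and counts for marker lists. Foxd1, the individual marker genes and the receptor genes Kdr, Met and Igf1r were named after their values were seen. The comparison of neighbouring members' culture ratios and of levels per kilobase was added after the values were seen.

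The series design states that a replicate's kidneys come from 1 litter, so the numbers pair libraries. Deviations from group means correlated with r = 0.238 to 0.643 in 45 pairs of the same litter and -0.544 to 0.309 in 90 pairs of different litters and different groups. No library was counted as a duplicate, since chi-square per gene was 4.29 to 51.9 between the 18 pairs of libraries within a group. Alternatives were the litter or the culture as a block, DESeq2's size factors or test, no low-count filter, fits of the compared groups alone, and leaving out litter 3 or each library in turn.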

Additional observations from a re-analysis of the deposited data

How the results depend on the processing

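Counts of members called kept their value or stayed within 1.5 times in all 173 recomputations of the 12 comparisons. They were 7 for the averaged fraction contrast, 6 or 7 for Mylk-shRNA alone and 0 for every vector comparison and interaction. Omd also entered the fits without the low-count filter and with DESeq2's test. Of 441 recomputed fraction fold changes 436 kept direction and call, and the other 5 are those of Prelp with Mylk-shRNA given above. With litter 3 left out, the log2 fold change of Dcn became 0.222 in positive cells for Rock1/2-shRNA against scramble-shRNA (-0.08 with it) and -0.082 for Mylk-shRNA against Rock1/2-shRNA in the negative fraction (0.08 with it), and that of Lum in negative cells, Mylk-shRNA against scramble-shRNA, became 0.067, and 0.0086 with the litter as a replicate block. Leaving out single libraries gave ranges that crossed 0 for uncalled values. In the positive fraction these were -0.305 to 0.085 for Dcn, -0.066 to 0.243 for Aspn and -0.406 to 0.018 for Fmod (Rock1/2-shRNA against scramble-shRNA) and -0.168 to 0.041 for Fmod (Mylk-shRNA against Rock1/2-shRNA). In the negative fraction they were -0.130 to 0.088 for Lum (Mylk-shRNA against scramble-shRNA), -0.0019 to 0.461 for Dcn (Rock1/2-shRNA against scramble-shRNA), and -0.062 to 0.347 for Dcn and -0.465 to 0.060 for Ogn (Mylk-shRNA against Rock1/2-shRNA). For the interactions they were -0.324 to 0.0055 for Dcn (Mylk-shRNA) and -0.070 to 0.570 for Lum (Rock1/2-shRNA). The cause was not tested.

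The block of litter changed no call of a member. Over all genes, called in either direction, the fraction contrast within single vectors moved by over 1.5 times: beside the counts with the litter as a block given above, the culture as a block gave 3674, 3026 and 3466 genes for Mylk-shRNA, Rock1/2-shRNA and scramble-shRNA, and 1303 for Mylk-shRNA with the compared groups alone. The counts fell to 1416 without Mylk-shRNA positive replicate 1, to 1167 and 1228 without Rock1/2-shRNA positive and negative replicate 2, and to 1184 and 1182 without scramble-shRNA positive and negative replicate 2. Depth limits Omd, Fmod and Prelp, whose negative libraries hold few counts.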
